A study of Saccharomyces cerevisiae with 30 samples.

Results

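Gene expression in the evolved tetraploid clone of line 3 was compared with that of its own tetraploid ancestor on 3 arrays, out of 30 arrays in the whole series. The 3 arrays were chosen by their titles, evolved 3 over ancestral 3, replicates 1 to 3, and no measured value entered that choice. Both cultures were budding yeast, *Saccharomyces cerevisiae*, of the W303 background, built as **a**/**a**/α/α tetraploids from haploid parents in which *SPO11*, the gene for the nuclease that starts meiotic recombination, was deleted, so the deletion was present on both sides of every ratio. The evolved culture was a single clone, picked as the fittest of several colonies, after 1000 generations of growth in rich medium. The lines were evolved at a lower temperature than the one used for the arrays. The culture stands for that clone and not for the whole evolved population. For the arrays, both cultures were grown to log phase in rich medium (YPD) at 36°C. RNA of the evolved clone carried Alexa Fluor 647 and RNA of the ancestor Alexa Fluor 555, and the dyes were not swapped on any array. A positive log2 ratio means more RNA in the evolved clone, as far as the labels of the channels hold, since line 1 ran opposite to line 3 over most rows. The 3 arrays were labelled as technical replicates, so the spread between them, and every p-value given here, covers technical error and not the spread between clones or populations.

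The groups compared with line 3 were also sets of 3 arrays of cultures at 36°C, but not all had a tetraploid ancestor as the reference. The other 7 lines each set an evolved tetraploid clone against its own ancestor on 3 arrays, 21 arrays in all. The evolved 4 over diploid group set the evolved clone of line 4 against a diploid of the same background, again on 3 arrays. By its labels it shares no culture with line 3. The ancestral 4 over diploid group set the unevolved tetraploid ancestor of line 4 against a diploid, also on 3 arrays. The paper describes its diploid and tetraploid strains as isogenic and made from the same haploid parents, in which *SPO11* was deleted.

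Yeast cells are held in shape by a wall of glucan, mannoprotein and a little chitin. Heat, osmotic swelling and wall damage are sensed at the plasma membrane and passed through the small GTPase Rho1, protein kinase C and a MAP kinase cascade that ends in Slt2, and the transcription factors under Slt2 raise the expression of wall proteins, wall-modifying enzymes and the pathway's own kinases. This is known as the cell wall integrity pathway, and yeast cells need it for growth at high temperature. Tetraploid yeast cells are larger than diploid cells and have less surface for their volume.

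Before any gene was named, the identifiers listed beside the values were tested on the values. Genes for ribosomal proteins rise and fall together in yeast, but over the 27 arrays other than those of evolved 4 over ancestral 4, the 122 rows listed under ribosomal protein identifiers had a mean pairwise correlation of −0.00332, against 0.00206 for all 5704 complete rows. For 45 listed pairs of the A and B copies of ribosomal protein genes, the median correlation was 0.0217. Other lists of nuclear genes checked under their listed names had mean pairwise correlations between −0.0466 and 0.0157. The 7 rows listed as mitochondrially encoded genes had a higher mean pairwise correlation, of 0.266. In the correspondence described next, however, rows listed under mitochondrial identifiers, such as Q0105 and Q0250, had only nuclear genes as candidates. The listed names were therefore not borne out for the nuclear genes and were not used for the mitochondrial ones. Once the rows were taken in the order of the strand letter of the listed identifier, the values ran through the genes in alphabetical order, and a correspondence was rebuilt from 336 anchor rows of line 4 (the method is given with the processing). It gave a gene to 3902 of 6377 rows (61.2%). Of 224 anchors left out in turn and predicted from the others, 222 (99.1%) fell on a row with the anchor's own value. On the 27 arrays not used for the anchors, the 105 complete rows reassigned to ribosomal protein genes had a mean pairwise correlation of 0.653. Among 29 reassigned A and B pairs the median was 0.912 and the lowest pair stood at 0.577. The 150 rows on either side of the ribosomal protein rows had a median correlation of −0.0168 with them, against 0.864 for the ribosomal protein rows themselves. A correlation above 0.5 was found for 28 of these 150 rows and for 99 of the 105 ribosomal protein rows. Gene names below are these reassigned names, with the listed identifier given once, and they are inferred names. Rows with no reassigned gene are called by their listed identifier, which says nothing about the gene measured. Close paralogs may share signal on a probe, which was not assessed here.

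The reassigned *SPO11* row had 0 of 3 values in line 3. The 3 arrays of line 3 held between 6319 and 6344 values each, and 1 cell stood at the floor of the table and was left out. Array 1 correlated with array 2 at 0.852 and with array 3 at 0.811, and arrays 2 and 3 correlated at 0.741. The median SD of a row over the 3 arrays was 0.0902 on the log2 scale, and the median absolute mean log2 ratio was 0.158. Most rows of line 3 thus moved by little. Each array was centred near 0, so a change in total RNA per cell is not seen, and in bulk RNA a change in the share of cells in some state and a change in RNA per cell cannot be told apart. The number of arrays limits the precision, and signal over background is unknown here.

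Of 6338 rows tested in line 3, 37 were called, of which 27 had more and 10 had less RNA in the evolved clone, at an adjusted p under 0.05 and at least a 2-fold change. That is 0.584% of the rows tested, 0.426% higher and 0.158% lower. After quantile normalization over the 30 arrays 69 rows were called, 40 higher and 29 lower. With no fold minimum, 1118 rows (17.6%) were higher and 1192 rows (18.8%) were lower at an adjusted p under 0.05. All 37 called rows had the same sign on all 3 arrays, and 29 of them passed 2-fold on each of the 3. Their SD over the arrays ran from 0.0129 to 0.506 with a median of 0.114. A gene was reassigned to 27 of the 37, 18 of those higher and 9 of those lower, while 7 rows had 2 to 4 candidate genes and 3 rows had none.

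Of the 18 higher calls with a reassigned gene, 6 were genes of the cell wall or of the pathway that guards it. This count rests on a list written after the values were seen, so it carries no test. The list held 45 of the 3881 tested rows with a reassigned gene. The highest row of all was *PIR3* (listed YDR363W), which encodes a wall protein bound to glucan. Its log2 ratio was 2.28 on array 1, 2.45 on array 2 and 2.21 on array 3. All 3 arrays lay above 4-fold and close together, with a mean of 2.31 ± 0.12 (SD, n = 3) and an adjusted p of 2.30e-15. *YPS3* (listed YGL134W) encodes a yapsin, an aspartic protease anchored at the cell surface, and its log2 ratios of 1.34, 1.47 and 1.37 gave a mean of 1.39 ± 0.07 (SD). *KDX1* (listed YDR356W) encodes a kinase-like protein closely related to Slt2 and is a known target of the pathway. Its log2 ratio was 1.37, 1.41 and 1.35 on the 3 arrays, with a mean of 1.38 ± 0.03 (SD), among the tightest of the called rows. *BAG7* (listed YOL130W), for a protein that turns off Rho1, stood at log2 ratios of 1.22, 1.44 and 1.39, with a mean of 1.35 ± 0.11 (SD).

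Further wall proteins followed. *SED1* (listed YGR018C), for an abundant anchored wall glycoprotein of resting cells, had log2 ratios of 1.01, 1.28 and 1.30, with a mean of 1.20 ± 0.16 (SD). *NCW2* (listed YGR010W), for another wall protein, had log2 ratios of 1.25, 1.20 and 1.05, with a mean of 1.17 ± 0.11 (SD). *CWP1* (listed YDR211W), for a wall mannoprotein, lay just under the 2-fold limit with a mean of 0.96 ± 0.09 (SD). None of these rows overlapped 0 on any array. *PST1*, for a wall protein released by regenerating protoplasts, had a mean of 0.82 ± 0.13 (SD), and *DFG5*, for an enzyme that links proteins to the wall, a mean of 0.79 ± 0.10 (SD). *BGL2*, for a glucan-modifying enzyme of the wall, had a mean of 0.74 ± 0.07 (SD). *SLT2* itself had log2 ratios of 0.48, 0.52 and 0.49, a mean of 0.50 ± 0.02 (SD), with an adjusted p of 5.35e-06.

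A list of 59 genes of the cell wall and of its integrity pathway was written after these values had been seen, so its counts describe the rows and carry no test. Of its 45 rows with a reassigned gene, 6 were called higher and 0 lower, against 0.426% higher and 0.158% lower of all rows tested. At an adjusted p under 0.05 with no fold minimum, 22 rose and 5 fell, against 17.6% and 18.8% of all rows. The median of the list was 0.20, beside −0.01 over all rows. In the other 7 lines the median of the list ran from −0.30 in line 1 to 0.04 in line 6. The members that fell were *MNN1*, *TOS1*, *SCW4*, *SWI4* and *SPI1*, the lowest of them *MNN1* (a mannosyltransferase of the Golgi) at −0.46 ± 0.12 (SD). The kinases above Slt2 did not pass the test. *PKC1* had a mean of −0.15 with an adjusted p of 0.119, *BCK1* a mean of −0.17 with an adjusted p of 0.20, and *MKK2* a mean of 0.09 with an adjusted p of 0.358. Within the list the 3 arrays did not rank every gene alike. *HSP150* and *PIR1*, for wall proteins of the same family as Pir3, stood at 0.72 and 0.61 on array 1, at 1.07 and 0.99 on array 2, and at 0.27 and 0.31 on array 3. Array 3 was thus the lowest for both of these genes.

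**Figure D1:**
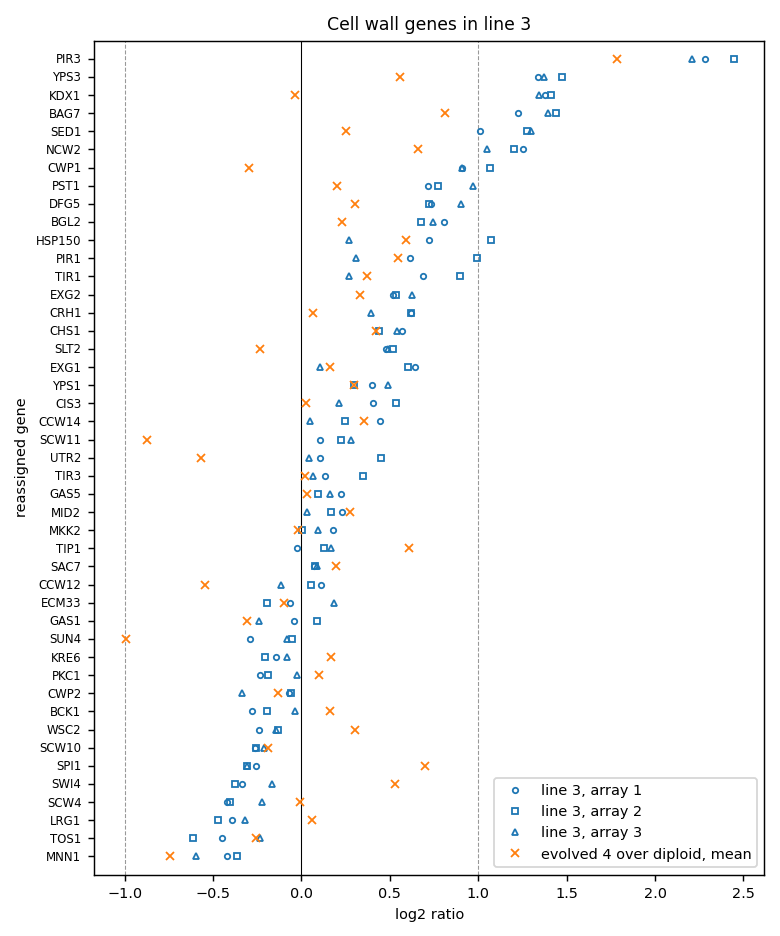
Log2 ratios of the 45 reassigned rows of the cell wall list. Blue symbols are the 3 arrays of evolved 3 over ancestral 3, orange crosses are the mean of evolved 4 over diploid, the solid line marks 0 and the dashed lines a 2-fold change. *PIR3*, *YPS3*, *KDX1*, *BAG7*, *SED1* and *NCW2* lie beyond 2-fold on all 3 arrays, and most other rows lie nearer 0.

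The other higher rows had no single role. *ARK1* (listed YLR080W) encodes a kinase that regulates the cortical actin cytoskeleton and endocytosis, and its log2 ratios were 2.02, 2.26 and 2.21. The mean of 2.16 ± 0.13 (SD) was the second highest of the line, at an adjusted p of 2.79e-09. *YNR042W* (listed YMR198W), an open reading frame of doubtful coding status, had log2 ratios of 1.14, 1.56 and 2.00. Its mean of 1.57 came with an SD of 0.43, the widest among the higher rows. The row listed as YPR144C, with no reassigned gene, was tighter at log2 ratios of 1.61, 1.62 and 1.42. *SRL3* (listed YER035W), for a protein related to the G1 repressor Whi5, had log2 ratios of 1.55, 1.44 and 1.58. *PCA1* (listed YDR141C), for a P-type ATPase that exports cadmium, had log2 ratios of 1.48, 1.45 and 1.49. These values lay well apart from 0, with means of 1.52 and 1.47.

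*YNR066C* (listed YMR238W), of unknown function, had log2 ratios of 1.36, 1.49 and 1.51. The row listed as YEL062W, for which *UTP30* and *KTR2* were the candidates, had log2 ratios of 1.40, 1.38 and 1.39, the smallest SD of all called rows. The remaining higher rows ranged from 1.02 to 1.36. Among them, *CRG1* (listed YPL145C), for a methyltransferase, had a mean of 1.35, *OPI3* (listed YDL085W), for the enzyme of the last steps of phosphatidylcholine synthesis, a mean of 1.17, and *YKE4* (listed YPL217C), for a zinc transporter, a mean of 1.13. *YNL058C* (listed YLR169W), of unknown function, had a mean of 1.36 and *YKL162C-A* (listed YDR360W) a mean of 1.25. By its systematic name *YKL162C-A* lies between *KDX1* and *PIR3* on the left arm of chromosome XI, so 3 open reading frames of this stretch were called higher.

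The lower rows were fewer. *DAK2* (listed YLR151C), which encodes dihydroxyacetone kinase, was the lowest row of the line, with log2 ratios of −2.30, −2.90 and −2.48. Its mean of −2.56 ± 0.31 (SD) was larger in size than that of any higher row. *APE1* (listed YDR225W), for a vacuolar aminopeptidase, had log2 ratios of −1.80, −1.79 and −1.65, and the mean was −1.75 ± 0.08 (SD). *ILT1* (listed YGR050C) had log2 ratios of −1.34, −2.01 and −1.70, so array 1 was the mildest. *FRE1* (listed YGR041W), for the main ferric and cupric reductase of the cell surface, had log2 ratios of −1.58, −1.50 and −1.69. These 4 rows lay beyond 2-fold on all 3 arrays, with adjusted p-values between 2.70e-15 for *APE1* and 2.60e-09 for *ILT1*.

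The next 6 lay closer to the limit. *MTC7* (listed YJR091C), of unknown function, had log2 ratios of −0.91, −1.02 and −1.84, so its mean of −1.26 ± 0.51 (SD) was pulled by array 3. *HXT13* (listed YKL011C), a member of the hexose transporter family, had log2 ratios of −1.20, −1.12 and −0.91. *MGA1* (listed YOL048C), for a protein similar to heat shock transcription factor, had log2 ratios of −0.97, −0.90 and −1.36. *SER3* (listed YKR004C), for phosphoglycerate dehydrogenase at the start of serine synthesis, had log2 ratios of −1.11, −1.15 and −0.86. Each of these 4 had an array under 2-fold. The row listed as YDR460W had log2 ratios of −1.02, −0.88 and −1.14, and *SPS4* (listed YOR315W), a gene known from sporulation, had −1.04, −1.09 and −0.88. *SPS4* was the called row nearest to the limit, with a mean of −1.003, and the nearest row outside it was that listed as YIR020WB01, with a mean of −0.994.

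**Figure D2:**
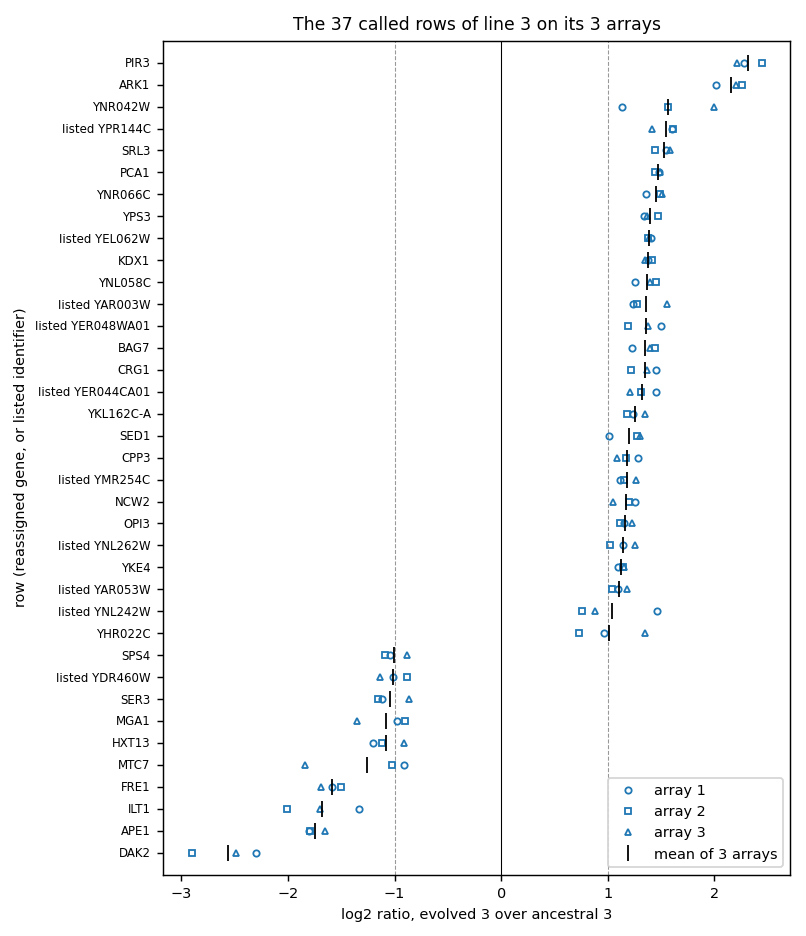
Log2 ratios of the 37 called rows of line 3, evolved 3 over ancestral 3. Blue symbols are the 3 arrays, black ticks their mean, and dashed lines a 2-fold change. *PIR3* and *ARK1* lie apart at the top and *DAK2* at the bottom, and *YNR042W* and *MTC7* show the widest spread.

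Gene groups outside the wall moved by less than 2-fold but together in places. Genes for ribosome biogenesis, the nucleolar factors that process ribosomal RNA and assemble subunits, were lower: of 54 reassigned rows, 36 fell and 2 rose at an adjusted p under 0.05, against 18.8% and 17.6% of all rows, none was called at 2-fold, and the median was −0.28. The lowest was *NOG2*, for a GTPase of the large subunit, with log2 ratios of −0.90, −0.98 and −0.97, followed by *PWP2* with a mean of −0.80. This list was not particular to line 3. Its median was −0.81 in line 2, −1.04 in line 4, −0.61 in line 5 and −0.52 in line 6. It was −0.29 in line 7, −0.06 in line 8 and 0.24 in line 1. Genes for amino acid synthesis were lower in line 3 to the same degree as those for ribosome biogenesis, but fewer other lines had them low. Their median was −0.34 in line 4, −0.11 in line 2 and −0.08 in line 6, and above 0 in lines 1, 5, 7 and 8. In line 3, of 35 reassigned rows, 22 fell and 2 rose, with a median of −0.28. After *SER3* the lowest was *ILV2* (branched-chain amino acids), with a mean of −0.61, and then *LEU1* (leucine), at −0.59 on each of array 1 and array 3 and −0.58 on array 2. The 107 rows for ribosomal proteins themselves stood nearer 0, with a median of −0.05, and 17 fell and 2 rose.

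Groups with a median above 0 moved less, and the shares of their members that rose are to be read against 17.6% of all rows. Of 20 rows for oxidative phosphorylation, 19 had a mean above 0, 5 rose and 0 fell, with a median of 0.13. For the proteasome, 17 of 19 rows had a mean above 0, 5 rose and 0 fell, with a median of 0.14. Among 26 rows for stress and reserve carbohydrate genes, 7 rose and 3 fell, with a median of 0.16. *ALD3*, for an aldehyde dehydrogenase, was the highest of them at a mean of 0.57. Among 19 chaperone rows, 6 rose and 2 fell, and the median was 0.01. *HSP12*, for a small membrane-protecting heat shock protein, was the highest with log2 ratios of 0.75, 0.68 and 0.76, while *HSP26*, the small heat shock chaperone, had a mean of −0.23 that did not pass the test.

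The remaining groups are read against the same shares of all rows, 17.6% higher and 18.8% lower. Of 6 histone rows, 1 fell, with a median of −0.09, and of 10 glycolysis rows, 1 rose, with a median of 0.07. For the TORC1 and Sch9 network, 3 of 15 rows rose and 1 fell, and the median was −0.06. *RIM15*, for a kinase of nutrient limitation, rose with a mean of 0.44, and *SCH9* had a mean of −0.13 with an adjusted p of 0.319. For the cell cycle and spindle, 9 of 22 rows fell and 2 rose, with a median of −0.09, the lowest being the mitotic cyclin gene *CLB1* at −0.59. Of 19 mating and sporulation rows, 4 rose and 4 fell, with a median of 0.02. Among 5 rows for marker genes of the strain background, 2 fell, with a median of −0.23. No row was reassigned to a mitochondrially encoded gene. The sign of each of these medians was the same after centring each array on its median and after quantile normalization.

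Private and shared changes were counted over the 8 lines. A call of line 3 was taken as private where none of the other 7 lines was called in either direction and line 3 also differed from their mean. Line 3 minus the mean of the other 7 lines gave 55 called rows of 6070 tested (0.906%), 36 higher and 19 lower. This count was 108 after quantile normalization, 60 higher and 48 lower, and 28 with the sign of line 1 turned, a setting that bears on the opposition of lines 1 and 3 described further on. By the rule, 4 of the 37 calls met the rule for private, *CPP3* higher and *MTC7*, *HXT13* and *MGA1* lower. *CPP3* (listed YGL179C), for a small protein of the plasma membrane, had log2 ratios of 1.28, 1.17 and 1.09, and the other lines ranged from −0.99 to 0.74. *MGA1* was below 0 in line 3 alone of the 8 lines, as the other 7 ranged from 0.10 to 0.72. For *HXT13* the other lines ranged from −0.53 to 0.79, and for *MTC7* from −0.94 to 0.81, so *MTC7* in line 2 stood close to line 3. Without array 3 of line 3, *MTC7* and *MGA1* were no longer called in it. After quantile normalization 21 calls were private, 11 higher and 10 lower. The private count was 20 with line 1 left out, 1 with its sign turned and 7 without array 2 of line 3, so it depends on how line 1 is read.

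A call was taken as shared where at least 1 other line was called with the same sign, which held for 9 of the 37, 6 higher and 3 lower, and for 9 after quantile normalization, 3 higher and 6 lower. With the sign of line 1 turned, 31 of the 37 were shared. The background of calls differed widely among the lines, at 8.39% of the rows tested for line 4, 1.45% for line 2, 0.739% for line 6, 0.624% for line 1, 0.366% for line 5, 0.222% for line 7 and 0.204% for line 8. Line 4, with by far the most calls, shared 6 of them, which were *PIR3*, *ARK1*, *SER3* and the rows listed as YER048WA01, YER044CA01 and YAR053W. *PIR3* had a mean of 1.54 in line 4, and *ARK1* had 1.33 in line 4 and 1.08 in line 6. *SER3* had −1.28 in line 4 but 0.99 in line 7. The 3 rows without a reassigned gene had log2 ratios in line 3 of 1.495, 1.19 and 1.38 for that listed as YER048WA01, of 1.45, 1.32 and 1.21 for that listed as YER044CA01, and of 1.101, 1.04 and 1.18 for that listed as YAR053W. Their means in line 4 were 1.27, 1.05 and 1.28.

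*PCA1* was shared with lines 2 and 6, at means of 1.19 and 1.12. *ILT1* was shared with lines 1, 5 and 7, at means of −1.79, −1.50 and −1.24, and was the call of line 3 found in the most lines. In lines 2, 4, 6 and 8 it stood near 0, with means of −0.19, 0.01, −0.11 and −0.14. *DAK2* was shared with line 1, at a mean of −2.70, while lines 2 and 6 were called in the opposite direction at 1.24 and 1.02.

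**Figure D3:**
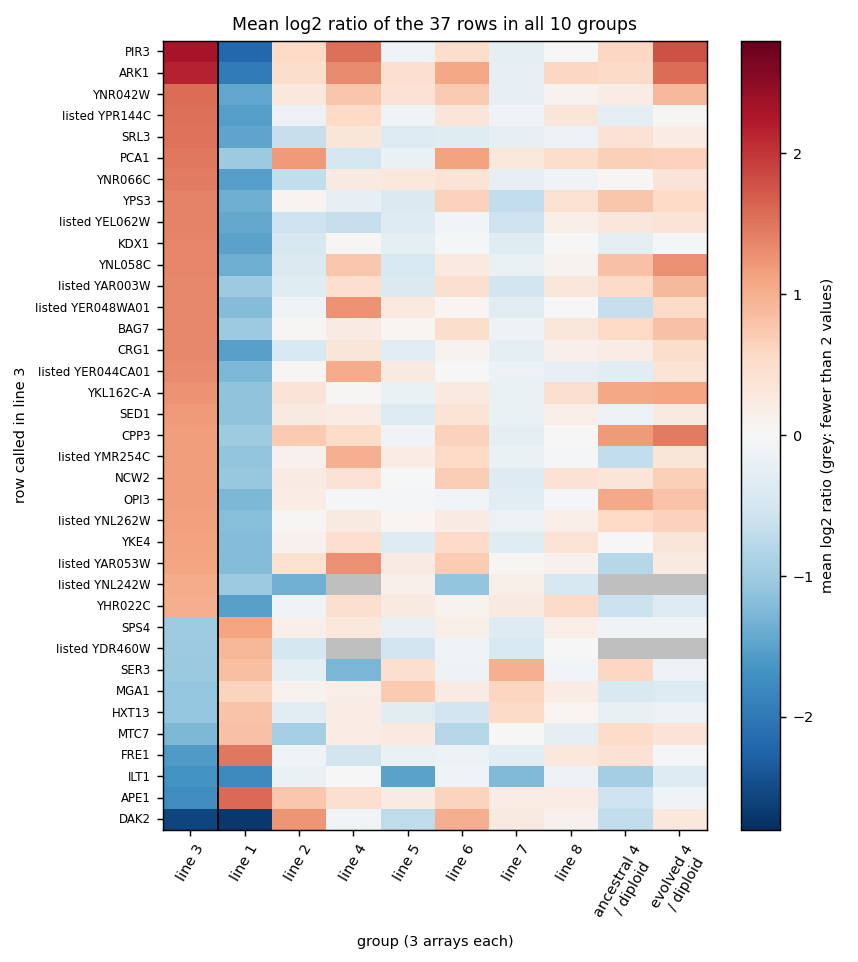
Mean log2 ratio of the 37 rows called in line 3 (rows, ordered by their mean in line 3) in all 10 groups of 3 arrays (columns). Red is higher and blue lower in the culture named first, and grey marks fewer than 2 values. Line 1 is blue where line 3 is red and the reverse, except for *DAK2* and *ILT1*, which are blue in both.

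Most calls of line 3 were neither private nor shared because line 1 was called in the opposite direction. Of the 37 calls, 29 were called with the opposite sign in line 1, and for 22 of them line 1 held the only call in another line. The group means of lines 1 and 3 correlated at −0.71 over 6250 rows, and the 9 pairs of single arrays between −0.718 and −0.364. With the sign of line 1 turned, the correlation becomes 0.71 by construction, above that of any other group with line 3. *PIR3* had log2 ratios of −1.85, −2.32 and −2.40 in line 1, *SRL3* of −1.70, −1.45 and −1.28, and *APE1* of 1.47, 1.61 and 1.69. For 35 of the 37 rows the means of the 2 lines summed to less than 0.5 in size. The difference of line 3 and line 1 gave 315 called rows of 6250 tested (5.04%), 197 higher and 118 lower in line 3 (273 and 265 after quantile normalization), and in 314 of those the means had opposite signs.

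*DAK2* and *ILT1* were the exceptions. *DAK2* had log2 ratios of −1.80, −2.84 and −3.45 in line 1 and *ILT1* of −1.14, −2.14 and −2.09, and neither differed between the 2 lines, with adjusted p-values of 0.665 and 0.693. With line 1 turned, 6 rows in place of 315 differed from line 3 at 2-fold. By the labels, both lines had the evolved clone on the same dye, and the direction is kept here as the labels give it. An exchange of channels or titles in line 1 or in line 3 and an opposite response of the 2 clones cannot be told apart from these labels. If line 3 were the exchanged line, every direction given for it would turn. With line 1 left out of the other lines, 8 of the 37 calls of line 3 counted as shared.

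By Pearson correlation over all rows, the group most like line 3 was evolved 4 over diploid, by a small margin. Over 6198 rows the Pearson correlation of the group means was 0.383, and the 9 pairs of single arrays lay between 0.293 and 0.407. Evolved 4 over ancestral 4 came next at 0.367, with array pairs between 0.266 and 0.369, so these 2 groups overlapped in their likeness to line 3. The other groups were evolved 6 at 0.279, evolved 5 at 0.260, evolved 2 at 0.240, ancestral 4 over diploid at 0.0990, evolved 8 at 0.0860 and evolved 7 at 0.0133. In ancestral 4 over diploid, where 3.4% of rows were called, 3 calls of line 3 were met with the same sign. By rank correlation the order of the leading groups changed, with 0.385 for evolved 4 over ancestral 4 and 0.336 for evolved 4 over diploid. These are descriptions over rows, which are not independent, and all groups share the array design and the dye of the culture named first. Without the called rows the correlation was 0.377 for evolved 4 over diploid and 0.379 for evolved 4 over ancestral 4. The likeness to both groups thus remained without those rows, but which of the 2 came first did not.

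**Figure D4:**
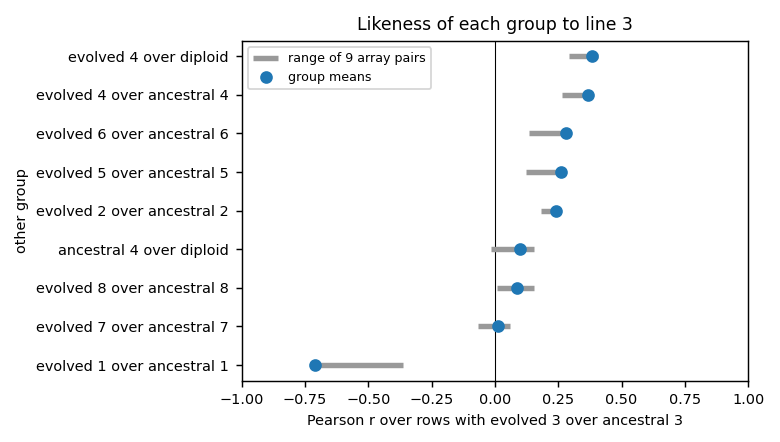
Pearson correlation over rows between evolved 3 over ancestral 3 and each other group. Blue points are the group means and grey bars the range over the 9 pairs of single arrays. Evolved 4 over diploid (0.383) and evolved 4 over ancestral 4 (0.367) lie highest and evolved 1 over ancestral 1 (−0.71) lowest.

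The rows called with the same sign in line 3 and in evolved 4 over diploid were all on the higher side. Of the 26 higher calls with a value in both, 24 were above 0 in evolved 4 over diploid, with a median of 0.55, and of the 9 lower calls, 7 were below 0, with a median of −0.12. Over all rows, 59.8% had the same sign in both groups. In evolved 4 over diploid 80 of 6225 rows were called (1.29%), and 5 of these were called in line 3 with the same sign, which is 14.3% of the calls of line 3 and 6.33% of the calls of evolved 4 over diploid with values in both. *PIR3* had log2 ratios of 1.76, 1.85 and 1.74 there and *ARK1* of 1.84, 1.19 and 1.63. *CPP3* had 1.45, 1.46 and 1.42, *YNL058C* had 1.31, 1.31 and 1.20, and *YKL162C-A* had 1.24, 0.85 and 1.24. None of the 5 differed between the groups by 2-fold. *PIR3* was higher in line 3 by 0.53 with an adjusted p of 0.00366, and for the other 4 the adjusted p ran from 0.0774 to 0.521. In ancestral 4 over diploid *CPP3* had a mean of 1.19, *YKL162C-A* 1.09, *YNL058C* 0.83, *PIR3* 0.58 and *ARK1* 0.54. In evolved 4 over ancestral 4 their means were 0.51, 0.04, 0.74, 1.54 and 1.33, in the same order. The height of *CPP3* and *YKL162C-A* over the diploid was thus found in the ancestor of line 4 too.

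From the other side, the calls of evolved 4 over diploid also kept their direction in line 3 in most rows. Of its 48 higher calls with a value, 39 were above 0 in line 3, with a median of 0.32, and of its 31 lower calls, 22 were below 0, with a median of −0.25. Below 2-fold, some gene lists were lower in both groups. Ribosome biogenesis had a median of −0.28 in line 3 and −0.48 in evolved 4 over diploid, and amino acid synthesis −0.28 and −0.27. Other lists parted, such as glycolysis at 0.07 and −0.33. For the cell wall list the median was 0.20 in line 3 and 0.16 in evolved 4 over diploid, but single members parted. *BAG7* had a mean of 0.81 there, *NCW2* of 0.66 and *YPS3* of 0.56, all below their values in line 3, and *KDX1* had −0.04 and *CWP1* −0.29.

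**Figure D5:**
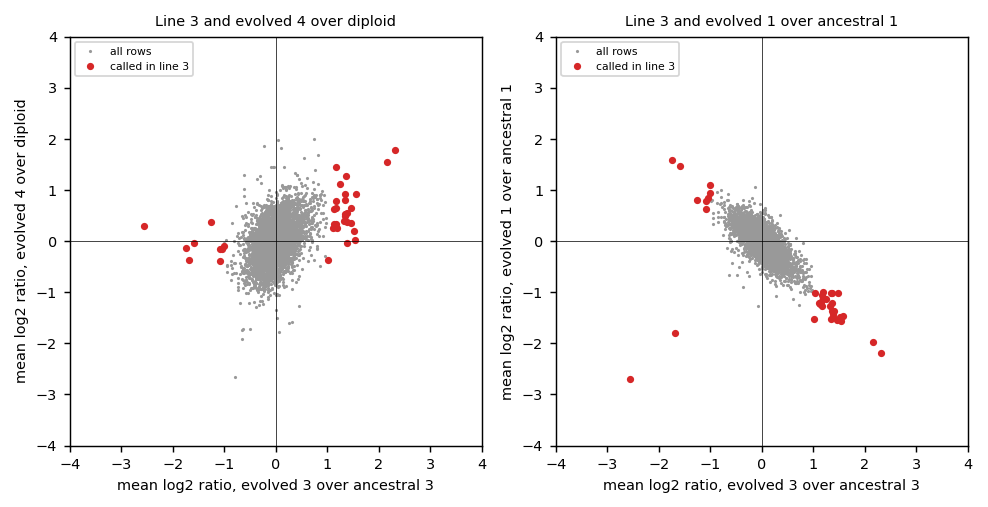
Mean log2 ratio of each row in evolved 3 over ancestral 3 (x axis) against evolved 4 over diploid (left) and evolved 1 over ancestral 1 (right), with grey points for all rows and red points for the 37 rows called in line 3, of which 35 have a value in the left panel. The right panel runs along a falling line, with *DAK2* and *ILT1* at its lower left as exceptions.

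The difference of line 3 and evolved 4 over diploid gave 69 called rows of 6198 tested (1.11%), 33 higher and 36 lower in line 3. Of these, 11 were called in line 3 alone, 29 in evolved 4 over diploid alone and 29 in neither, so 24 of the 35 calls of line 3 tested did not differ from evolved 4 over diploid by 2-fold. In the direction of line 3, the widest gaps led by its own values were *DAK2*, *MTC7*, *APE1* and *FRE1* on the lower side and the row listed as YPR144C, *KDX1*, *YHR022C* (listed YOR138C) and *SRL3* on the higher side. *DAK2* stood at 0.41, 0.39 and 0.08 in evolved 4 over diploid, a difference of −2.85 with an adjusted p of 3.55e-09. *KDX1* stood at −0.06, −0.01 and −0.04 there, a difference of 1.41 with an adjusted p of 9.86e-10, so this target of Slt2 was raised in line 3 and near 0 in the other group.

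The remaining rows at both ends were led by evolved 4 over diploid. On the lower side stood *HSP26* (listed YCR045C), at −0.18, −0.45 and −0.06 in line 3 and 1.83, 2.02 and 1.73 in evolved 4 over diploid. *PUT1* (listed YGL172W), for proline oxidase, stood at 0.05, −0.04 and 0.11 in line 3 and 1.79, 1.94 and 2.23 there. *RTS3* (listed YNL274C) stood at −0.56, −0.65 and −0.65 in line 3 and 1.23, 1.36 and 1.31 there. *HSP26* and *RTS3* were below 0 on every array of line 3. *RTS3* had a difference of −1.92 and an adjusted p of 2.71e-12, and *SPG4* (listed YJR112W), a gene of stationary phase, followed at 0.12, 0.17 and 0.03 in line 3 and 1.80, 2.01 and 1.64 there.

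On the higher side stood *DSE4* (listed YMR241W), for a glucanase that separates daughter cells, at 0.22, 0.41 and 0.31 in line 3 and −1.51, −1.80 and −1.44 in evolved 4 over diploid. The row listed as YJR010W stood at −0.96, −0.95 and −0.44 in line 3 and −3.04, −2.91 and −2.02 there, so it was low in both groups. *LEU9* (listed YOL078W), for a leucine synthesis enzyme, stood at 0.51, −0.10 and 0.34 in line 3 and −1.97, −1.03 and −1.78 there. The last 2 rows were less steady. *YMR141C* (listed YKL023W) stood at 0.09, 1.14 and 0.15 in line 3 and −0.36, −0.92 and −2.56 there, and *BUD25* (listed YKL060C) stood at 0.21, −0.01 and −0.02 in line 3 and had only 2 values there, −0.37 and −3.18.

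Along the genome, the chromosome medians of line 3 lay near 0. Over the 15 chromosomes with at least 50 reassigned rows, the median log2 ratio of line 3 ran from −0.06 on chromosome VIII to 0.06 on chromosome IX. In the other 7 lines these medians ran from −0.24 to 0.30. Chromosome II, for example, had a median of 0.28 over 311 rows in line 7 and of less than 0.01 in line 3.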

How the data were processed

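The deposited values are log2 ratios of 2-colour spotted oligonucleotide arrays, made by the authors with a LOWESS normalization per array once weak spots had been dropped. Direction rests on the dyes in the labels. Dyes were not swapped, so dye bias of single genes remains in the ratios. The table held 6377 rows, 3053 empty cells and 84 cells at a floor of −6.64, which were set to missing. All 30 arrays in 10 groups were fitted with lmFit and eBayes of limma 3.58.1, run in R 4.3.3, and p-values were adjusted by the method of Benjamini and Hochberg over all rows tested. A row needed 2 of 3 values in each group compared, and a call an adjusted p under 0.05 and a mean of at least 1 in size. Depth does not apply to arrays, and replicate spread sets the precision. Summaries used Python 3.11.15, numpy 2.4.6, pandas 2.3.3 and matplotlib 3.10.9.

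In simulated data with 200 rows changed by 1.5, 198 of 199 tested were recovered for line 3 with 0 false calls. For line 3 minus evolved 4 over diploid, 194 of 196 were recovered with 0 false calls, and for line 3 minus line 1, 193 of 196 with 1. The simulated noise was normal and independent, without dye bias, and the planted change lay well above the limit of 1. High recovery was thus built in, and the simulation checks the code and not the calls near the limit.

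The members, gene lists and tests were chosen with earlier results of these data known. The rule for named genes asked for array values of the 10 highest and 10 lowest calls, all shared and private calls, and the 5 highest and 5 lowest differences from evolved 4 over diploid, under listed identifiers only if these were borne out. They were not, so names were reassigned after the data were seen, which departs from that rule. Genes in supplementary tables of the study were joined to rows of line 4 by value, within 0.0004 after a constant offset of 0.0166. Of 353 such keys, 336 formed an increasing chain of anchors through the rows taken in order of the strand letter of the listed identifier, and a row was named only where the anchors on both sides implied the same shift. Symbols came from the R64 annotation, which held 3588 of the 3902 names. The cell wall list, the 2 settings on line 1, and the genes named outside the rule were chosen after values were seen. No columns of other samples were present. Alternatives were other scalings, filters, fold limits and priors, a replicate block, the t-test taken as that of the methods, and arrays or lines left out. Sequences were not used here.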

Additional observations from a re-analysis of the deposited data

Results flagged for a closer look

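Over the 8 line means, 35 called rows of line 3 were examined for a value far from the rest, and 3 were marked by Dixon's ratio. Chance marks about 1 in 20 groups, but that rate does not apply here, because the rows were chosen for their size in line 3, so the marks are given as values alone. *APE1* was marked in line 3, at −1.75, with the other lines between 0.20 and 1.59. *MGA1* was marked in line 3, at −1.08, with the others between 0.10 and 0.72. *YHR022C* was marked for line 1, at −1.51, while line 3 stood at 1.02.

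Tests of the difference itself found line 3 unlike other groups in 55 rows against the mean of the other 7 lines, in 69 rows against evolved 4 over diploid and in 315 rows against line 1.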

How the results depend on the processing

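Median centring, a value required on all 3 arrays, floor cells kept, arrays of the compared groups alone, a robust prior and a running median over 99 rows kept all 6 counts within 1.5 times. Quantile normalization gave 69 calls in line 3 (40 higher), 108 against the other 7 lines, 538 against line 1 (273 higher) and 21 private calls (11 higher). It also left 3 of 9 shared calls higher in place of 6. With no fold minimum the counts were 2310 for line 3, 2044 against the other 7 lines, 2344 against evolved 4 over diploid and 3191 against line 1. At 1.5-fold they were 242, 276, 579 and 1258, with 25 private and 131 shared calls. The methods' t-test gave 26 calls in line 3 (22 higher) at its unadjusted threshold and 9 after Benjamini-Hochberg. Leaving out each array of line 3 gave 38 to 40 calls in it, 58 to 60 against the other lines, 70 to 73 against evolved 4 over diploid, 305 to 336 against line 1, 4 to 7 private (7 without array 2) and 9 to 10 shared. *SPS4*, *SER3*, *MTC7*, *MGA1*, *YHR022C* and the rows listed as YNL242W and YDR460W lost their call in at least 1 of these, the first without array 1 and without array 2. Leaving out another line gave 45 (without line 1) to 72 calls against the mean of the rest. With the sign of line 1 turned, chosen after seeing the data, 28 rows differed from the other lines and 6 from line 1, and 1 call was private and 31 were shared. With line 1 left out, 20 were private. The cause of these shifts was not tested.

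Same-numbered arrays of different groups had deviations from their group means that correlated at a median of 0.000284, between −0.518 and 0.577. For differently numbered arrays the median was 0.000556, between −0.691 and 0.678. The numbers thus showed no general pairing, while pairing between single groups was not tested. With the replicate number as a block, line 3 again gave 37 calls, and evolved 4 over diploid 71 differences. The correlation with evolved 4 over diploid was 0.336 by rank and stayed between 0.356 and 0.392 otherwise.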
